A study of Mus musculus with 6 samples.

Results

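The enzymes and transporters that handle the ketone body β-hydroxybutyrate were described as 8 genes out of 55401 genes in the deposited RNA-seq table. These genes were chosen by name for their role and not for a measured value, but with earlier results of these data known. The enzymes were Oxct1, Acat1, Bdh1 and Bdh2, and the monocarboxylate transporters were Slc16a1, Slc16a3, Slc16a6 and Slc16a7. The study compared 3 control libraries, labelled as having no treatment, with 3 libraries from cells given 1 μM metformin, a biguanide used against diabetes, for 24 h. All 6 came from C57BL/6 cells labelled as female germline stem cells (FGSCs), a line kept over many passages on mitotically inactivated STO fibroblast feeders in a medium with serum, pyruvate and glutamine. No transgene or deletion was named for either group. Nothing in the labels says that the 3 libraries of a group came from separate cultures, so p-values measure the spread between these libraries, which may be technical.

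Levels are given as FPKM, the fragments on a gene per kilobase of its length, scaled to the mapped fragments of the library. The libraries held an estimated 13400000 to 14000000 fragments, so that the detection floor used here, 3 fragments on 1 kb of exon, came to 0.214 to 0.224 FPKM (counting error only). In these libraries, labelled as FGSCs, 0 of 6 germ cell markers had a mean of at least 1 FPKM, and Pou5f1, Dppa3 and Dazl were listed at 0. The summed level of these markers was 0.48 to 1.38 FPKM in the control group and 0.33 to 0.93 FPKM with metformin. Of 10 blood and mast cell markers, 8 reached that mean, and their sum was 982 to 1009 FPKM in the control group and 978 to 1002 FPKM with metformin, with Fcer1a at 0. Single markers of this list lay apart between the groups in both directions. Cpa3 (366 ± 16.9 FPKM in the control group and 338 ± 9.40 FPKM with metformin) and Ptprc (13.7 ± 0.133 and 13.0 ± 0.203 FPKM) were lower without overlap (SD, n = 3 each). Gata2 (258 ± 5.49 and 275 ± 2.99 FPKM), Coro1a (137 ± 2.38 and 142 ± 1.38 FPKM) and Laptm5 (70.5 ± 1.08 and 74.7 ± 3.53 FPKM) were higher without overlap (SD, n = 3 each). Kit, Spi1 and Tyrobp had overlapping groups. For Cpa3 the fit described below gave an adjusted p = 0.369 from limma. The part of these markers in the results below was not tested. Of 10 fibroblast markers for the feeders, 0 reached 1 FPKM, with Dcn highest at a mean of 0.27 FPKM and Lum at 0. The sum of the fibroblast markers was 0.44 to 0.75 FPKM in the control group and 0.51 to 0.62 FPKM with metformin. Of 5 hepatocyte markers, 0 reached 1 FPKM, and their sum was at most 0.12 FPKM in any library. Fewer cells of a type and less RNA per cell cannot be told apart in such bulk libraries.

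Ketone bodies are fuels that the liver makes from fatty acids and that other tissues oxidize. In cells that use them, BDH1 oxidizes β-hydroxybutyrate to acetoacetate in mitochondria, the OXCT1 transferase couples acetoacetate to coenzyme A, and the thiolase ACAT1 splits the product into acetyl-CoA for the TCA cycle. Some monocarboxylate transporters (MCTs) of the SLC16 family, such as MCT1, carry β-hydroxybutyrate, lactate and pyruvate across membranes together with a proton. The study examined β-hydroxybutyrylation of histones, a lysine mark whose acyl group derives from β-hydroxybutyrate. The genes below belong to the use of that metabolite or to the transport of monocarboxylates.

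Sequence upstream of the annotated start was read for 5 of the 8 genes from the RefSeq promoters of GRCm38.p6. For 4 of them the window of 250 bases before the start is shown, namely for the most abundant transporters, the most abundant enzyme and the enzyme closest to 0. Capitals mark ACGTG, the core letters of the hypoxia response element, or its reverse complement, and where both overlap they form CACGTG.
Slc16a1: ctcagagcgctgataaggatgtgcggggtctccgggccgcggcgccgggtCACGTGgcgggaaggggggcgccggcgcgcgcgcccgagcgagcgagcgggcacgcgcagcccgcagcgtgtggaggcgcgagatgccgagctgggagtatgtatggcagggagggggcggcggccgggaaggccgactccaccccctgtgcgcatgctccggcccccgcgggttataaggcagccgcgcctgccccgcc
Slc16a3: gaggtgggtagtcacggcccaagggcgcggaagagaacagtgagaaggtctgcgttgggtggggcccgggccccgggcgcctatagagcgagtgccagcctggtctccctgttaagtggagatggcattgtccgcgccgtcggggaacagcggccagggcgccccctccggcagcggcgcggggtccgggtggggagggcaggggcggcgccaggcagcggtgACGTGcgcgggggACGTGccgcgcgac
Oxct1: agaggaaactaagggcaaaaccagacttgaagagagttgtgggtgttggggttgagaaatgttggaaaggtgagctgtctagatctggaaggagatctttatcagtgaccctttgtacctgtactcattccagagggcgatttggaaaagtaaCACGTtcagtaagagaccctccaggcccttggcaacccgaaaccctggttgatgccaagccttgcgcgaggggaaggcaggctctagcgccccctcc
Bdh2: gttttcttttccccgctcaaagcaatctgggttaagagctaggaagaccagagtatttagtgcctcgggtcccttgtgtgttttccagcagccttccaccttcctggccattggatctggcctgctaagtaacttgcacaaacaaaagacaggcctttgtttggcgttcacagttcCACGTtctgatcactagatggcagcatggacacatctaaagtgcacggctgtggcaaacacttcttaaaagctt
The windows lie on the plus strand at chr3:104638414-104638663 for Slc16a1, chr11:120948817-120949066 for Slc16a3, chr15:4026178-4026427 for Oxct1 and chr3:135280971-135281220 for Bdh2. The window of Slc16a3 starts inside the gene as the deposited table lists it, since that entry begins at 120948480. The end of the Oxct1 window also lies inside the listed gene, which begins at 4026383. Slc16a1 and Slc16a3 had 37 and 29 CpG dinucleotides, more than 97.8% and 93.2% of the 32851 windows in the RefSeq table. Oxct1 had 6 and Bdh2 had 5, against a median of 6 over all windows. Bdh1 has 2 annotated starts, and its windows, which are not shown, had 7 and 9. ACGTG was found on either strand in 16.6% of all windows, and Slc16a3 had it at 2 places, starting 27 and 14 bases before the annotated start. Slc16a1, Oxct1 and Bdh2 had ACGTG at 1 place each, and neither window of Bdh1 had it. These counts leave out GCGTG, so they do not show that a window lacks the core. The windows shown are thus those of the 4 genes with ACGTG among the 5 read. A match of letters is a description and not a site of binding.

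In the control group the members spanned from 0 to over 80 FPKM, and the order of their levels was the same in all 6 libraries. Slc16a1 was highest with a mean of 80.5 FPKM over the 6 libraries, followed by Oxct1 with 46.6, Acat1 with 40.7, Slc16a3 with 36.6, Slc16a6 with 12.3 and Bdh1 with 8.76 FPKM. Each of these genes lay above the next in every library, and the closest neighbours, Acat1 and Slc16a3, did not overlap either, with 39.2 FPKM as the lowest value of Acat1 and 37.8 FPKM as the highest of Slc16a3. Slc16a1 was above 93.8% of the 10661 tested genes and Bdh1 above 48.0% of them. Bdh2 and Slc16a7 were the members near or at 0. Of the mitochondrial enzymes, the dehydrogenase of the first step was thus the lowest.

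**Figure D1:**
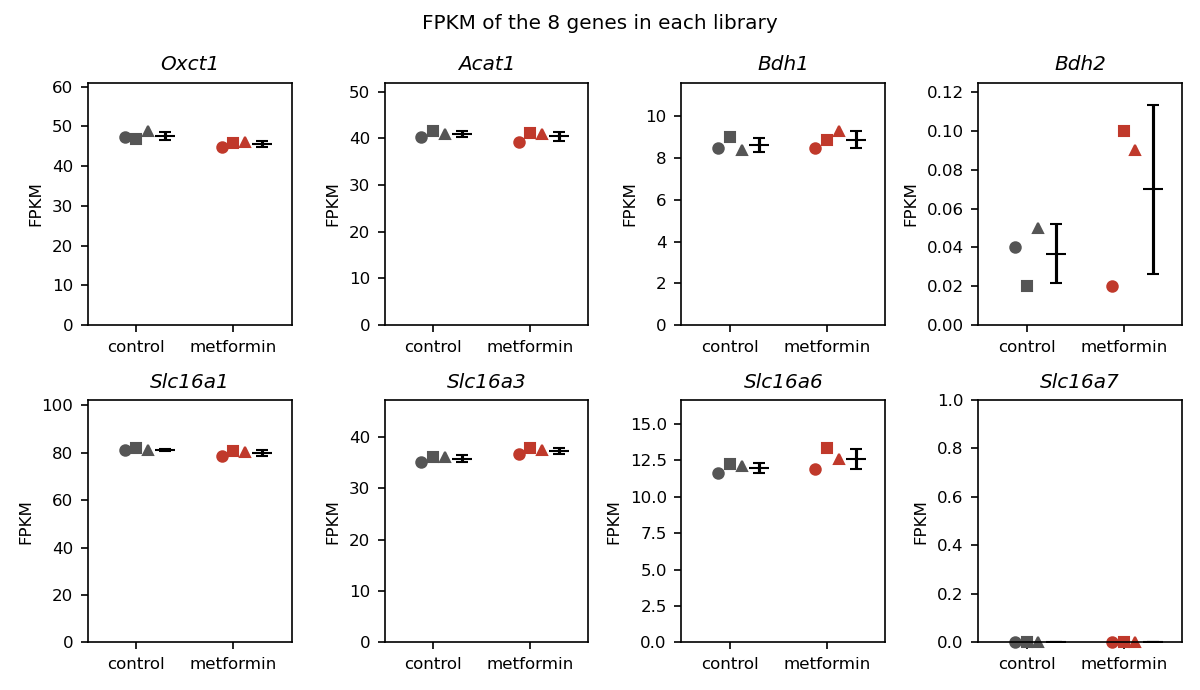
FPKM of each of the 8 genes in the 3 control libraries (grey) and the 3 metformin libraries (red), with circles, squares and triangles for replicates 1, 2 and 3 and a black bar for the mean ± SD of the group (n = 3). Each panel has its own linear axis from 0, and the groups are close in every measured gene, with Oxct1 at 46.8 to 48.9 FPKM in the control group and 44.8 to 46.0 FPKM with metformin.

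Metformin was compared with control for the 6 members with a mean of at least 1 FPKM, on the scale of log2(FPKM + 1), which understates the change of low genes. In limma, 0 of the 6 passed the threshold of 0.05 after Benjamini-Hochberg adjustment over 10661 genes, with a lowest adjusted p = 0.467, and 0 of the 6 had an unadjusted p under 0.05. Over all tested genes 0.0281% passed the adjusted threshold, each of them higher, and 10.8% the unadjusted one, 6.03% higher and 4.81% lower with metformin. The 95% confidence intervals of the 6 log2 fold changes all lay between -0.12 and 0.17, or 0.918 to 1.13 times the control level of FPKM + 1. Differences of a few percent could not be told from 0. On average 3 members were higher and 3 lower with metformin, with a median log2 fold change of 0.0098 against 0.0041 for all tested genes. The median size of the change regardless of direction was 0.047 for the members and 0.049 for all tested genes.

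Oxct1 encodes the mitochondrial transferase that commits acetoacetate to oxidation and lies on chromosome 15 of GRCm38 from 4026383 to 4155344. It had 47.2, 46.8 and 48.9 FPKM in the control libraries and 44.8, 45.9 and 46.0 FPKM in the metformin libraries. All 3 metformin libraries were below all 3 control libraries. The means were 47.6 ± 1.10 FPKM in the control group and 45.6 ± 0.642 FPKM with metformin (SD, n = 3 each), and the fitted log2 fold change was -0.06 (95% confidence interval -0.12 to 0.00061, adjusted p = 0.467 from limma). A two-sided exact permutation test gave p = 0.1, below which a comparison of 3 libraries with 3 cannot go. The lowest unadjusted p among the members, 0.0518, was that of Oxct1 in limma. The genes whose values over the 6 libraries, each centred on its own mean, lay closest to those of Oxct1 were Lgals9, Plscr1 and Dkc1, with a root mean square distance of 0.0052, 0.0070 and 0.011 on the log2 scale. A search among 10029 tested genes with a symbol finds small distances in any case, and shared regulation was not tested.

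Acat1 encodes the mitochondrial acetoacetyl-CoA thiolase, which also works in isoleucine breakdown, and lies on chromosome 9 from 53580522 to 53610382. It had 40.3, 41.6 and 40.9 FPKM in the control libraries and 39.2, 41.0 and 40.9 FPKM in the metformin libraries. The groups overlapped, with the lowest value in metformin replicate 1. Its log2 fold change was -0.02 (95% confidence interval -0.08 to 0.05, adjusted p = 0.851 from limma), and without metformin replicate 1 it was 0.0023. The direction of the Acat1 difference thus rested on that library.

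Bdh1 encodes the mitochondrial β-hydroxybutyrate dehydrogenase, which interconverts β-hydroxybutyrate and acetoacetate, and lies on chromosome 16 from 31422280 to 31458901. Its levels were 8.48, 9.02 and 8.39 FPKM in the control libraries and 8.50, 8.87 and 9.30 FPKM in the metformin libraries. The groups overlapped, and the log2 fold change was 0.04 (95% confidence interval -0.07 to 0.15, adjusted p = 0.804 from limma). In every library Oxct1 was several times as high as Bdh1, and Bdh1 was between 0.172 and 0.202 of the Oxct1 level.

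Bdh2 encodes a cytosolic dehydrogenase that has been linked both to β-hydroxybutyrate and to an iron-binding siderophore, and it lies on chromosome 3 from 135281221 to 135304426. It was listed at 0.04, 0.02 and 0.05 FPKM in the control libraries and at 0.02, 0.10 and 0.09 FPKM in the metformin libraries. All 6 values lay under the level of 3 fragments on 1 kb, so no fold change is given, and a difference was not detectable at this depth. The contrast with Bdh1 held in each library.

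Slc16a1 encodes MCT1, a transporter found in most tissues that carries lactate, pyruvate and ketone bodies, and lies on chromosome 3 from 104638668 to 104658462. It had 81.2, 81.7 and 80.9 FPKM in the control libraries and 78.4, 80.7 and 80.2 FPKM in the metformin libraries. The 3 metformin libraries lay below the 3 control libraries, by a narrow margin of 80.9 against 80.7 FPKM between the nearest values. The means were 81.3 ± 0.413 FPKM in the control group and 79.7 ± 1.19 FPKM with metformin (SD, n = 3 each), and the fitted log2 fold change was -0.03 (95% confidence interval -0.08 to 0.02, adjusted p = 0.676 from limma, and p = 0.1 in the exact permutation test).

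Slc16a3 encodes MCT4, a transporter known for lactate export from glycolytic cells and for induction by hypoxia, and lies on chromosome 11 from 120948480 to 120960868. It had 35.1, 36.2 and 36.2 FPKM in the control libraries and 36.7, 37.8 and 37.4 FPKM in the metformin libraries. The lowest metformin library, at 36.7 FPKM, was above the highest control library. The means were 35.8 ± 0.601 FPKM in the control group and 37.3 ± 0.568 FPKM with metformin (SD, n = 3 each), and the fitted log2 fold change was 0.06 (95% confidence interval -0.0050 to 0.12, adjusted p = 0.491 from limma, and p = 0.1 in the exact permutation test). The listed Slc16a3 overlaps Csnk1d, a kinase gene on the opposite strand, from 120958990 to 120960868, and whether fragments of that stretch entered both genes was not tested, since the strand setting of the counting is not given. Csnk1d had 33.4 ± 1.33 FPKM in the control group and 33.9 ± 0.418 FPKM with metformin (SD, n = 3 each), with overlapping groups.

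Slc16a6 encodes MCT7, which has been linked to the export of ketone bodies from liver cells, and lies on chromosome 11 from 109450855 to 109473598. It had 11.6, 12.2 and 12.1 FPKM in the control libraries and 11.9, 13.3 and 12.6 FPKM in the metformin libraries. The groups overlapped through metformin replicate 1. The log2 fold change was 0.07 (95% confidence interval -0.04 to 0.17, adjusted p = 0.636 from limma). At one end the listed gene overlaps Amz2 on the other strand, whose mean was 7.48 FPKM with overlapping groups. It also overlaps mmu-mir-1194 on the same strand (mean 3.99 FPKM, overlapping groups) and Arsg on the other strand (mean 0.397 FPKM). Whether fragments of these stretches entered the Slc16a6 values was not tested. Slc16a7 encodes MCT2, a transporter of high affinity found in neurons and testis, and lies on chromosome 10 from 125219270 to 125389465. It was listed at 0 in all 6 libraries. The floor of 0.214 to 0.224 FPKM on a transcript of 1 kb is that of a single library, and no limit for the 6 libraries together was computed.

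Of the 6 tested members, 3 had groups that did not overlap, Oxct1 and Slc16a1 lower and Slc16a3 higher with metformin. Among all tested genes the groups did not overlap for 17.0%, with 8.89% higher and 8.10% lower. With 6 genes, no more is read from this count.

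**Figure D2:**
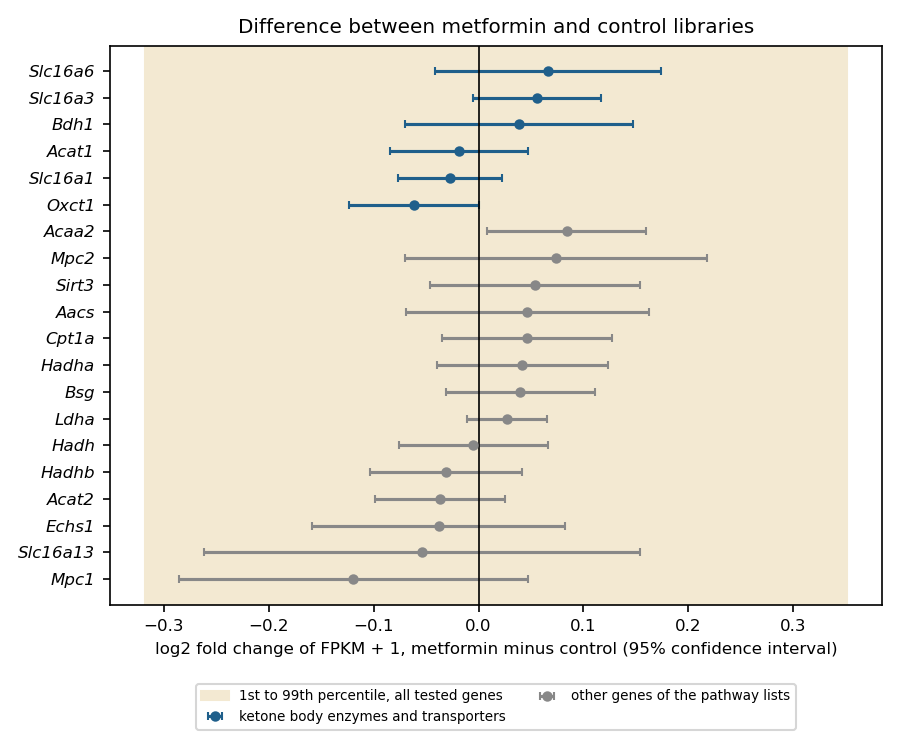
Log2 fold change of FPKM + 1 (metformin minus control) with its 95% confidence interval from limma for the 6 tested members (blue) and 14 tested genes of the pathway lists (grey), over a band from the 1st to the 99th percentile of all tested genes. Every point lies well inside the band from -0.32 to 0.35, and the interval of 1 gene, Acaa2, excludes 0 before adjustment.

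Among 13 genes of the SLC16 family, 3 members made up nearly all transcripts per length. Slc16a1 held 60.2% to 60.9% of the summed FPKM of these genes in the control libraries and 59.0% to 59.5% with metformin. Slc16a3 held 26.3% to 26.9% and 27.6% to 27.8%, and Slc16a6 held 8.70% to 9.07% and 9.04% to 9.74%. The shares of a sum are tied to each other, and these differences are those of the genes described above. The sum itself was 133 to 135 FPKM in the control group and 132 to 137 FPKM with metformin, and it overlapped between the groups. Of the 9 family genes outside the members, only Slc16a13 passed the filter, with 3.07 ± 0.318 FPKM in the control group and 2.93 ± 0.346 FPKM with metformin (SD, n = 3 each). The other 8 had means of 0 to 0.988 FPKM, with the aromatic amino acid transporter Slc16a10 highest at 0.988 FPKM. Basigin (Bsg), the glycoprotein that brings MCT1 and MCT4 to the cell surface, had a mean of 226 ± 8.04 FPKM in the control group and 233 ± 5.0 FPKM with metformin (SD, n = 3 each, adjusted p = 0.675 from limma). Embigin (Emb), the partner preferred by MCT2, had a mean of 0.428 FPKM. The sodium-coupled monocarboxylate transporters Slc5a8 and Slc5a12 were at means of 0.0017 and 0 FPKM.

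**Figure D3:**
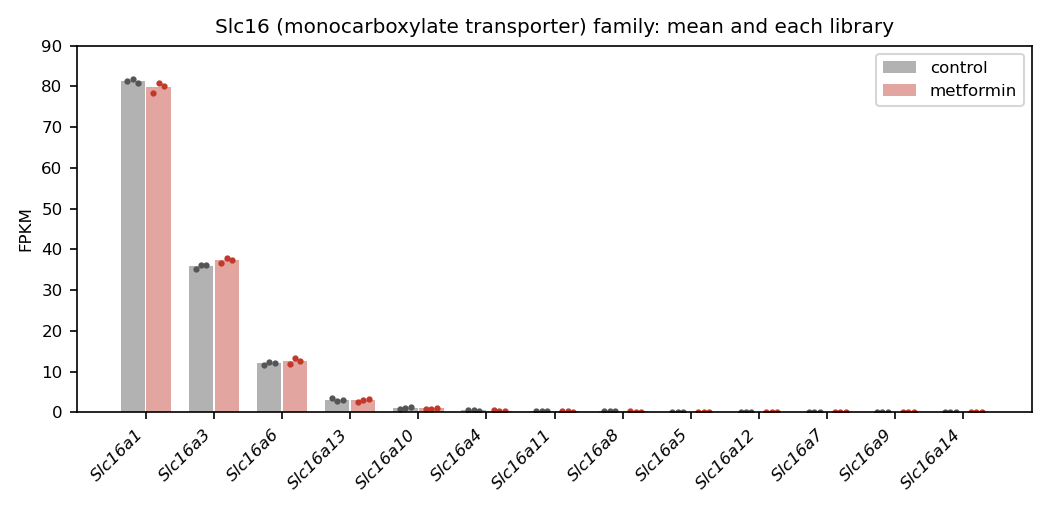
FPKM of 13 SLC16 genes, with bars for the mean of the 3 control (grey) and 3 metformin (red) libraries and dots for each library, ordered by the mean over all 6. Slc16a1, Slc16a3 and Slc16a6 stand above 10 FPKM, Slc16a13 has a mean of 3.0 FPKM, and the rest lie at or below 1.26 FPKM in every library.

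The other genes of the pathway were taken from 8 lists with 36 genes, of which 35 were matched in the table and 14 had a mean of at least 1 FPKM. Of the 14, 0 passed the adjusted threshold in either direction and 1 the unadjusted one in limma, 8 were higher and 6 lower with metformin on average, and their median log2 fold change was 0.03. The groups did not overlap for 3 of the 14, Acaa2 and Ldha higher and Mpc1 lower with metformin, beside the 17.0% of all tested genes given above. Acaa2, a mitochondrial thiolase that ends each round of fatty acid oxidation, was the 1 gene with an unadjusted p under 0.05, at 41.9 ± 1.65 FPKM in the control group and 44.4 ± 0.383 FPKM with metformin (SD, n = 3 each, log2 fold change 0.08, adjusted p = 0.423 from limma). The other genes of that list, Hadh, Hadha, Hadhb and Echs1, had overlapping groups. Among the genes for lactate and pyruvate, lactate dehydrogenase A (Ldha) was the highest gene of the lists, at 572 ± 4.45 FPKM in the control group and 583 ± 6.09 FPKM with metformin (SD, n = 3 each, adjusted p = 0.582 from limma), whereas Ldhb had a mean of 0.032 FPKM. The subunits of the mitochondrial pyruvate carrier were low, with means of 1.53 FPKM for Mpc1 and 4.12 FPKM for Mpc2. Mpc1 had 1.72, 1.6 and 1.58 FPKM in the control libraries and 1.40, 1.44 and 1.43 FPKM with metformin, and a log2 fold change of -0.12 (95% confidence interval -0.29 to 0.05, adjusted p = 0.576 from limma).

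The cytosolic enzymes that make or consume acetoacetyl-CoA outside mitochondria were measured as well. Aacs, the synthetase that lets cells use acetoacetate for lipid synthesis, had 17.1 ± 1.20 FPKM in the control group and 17.6 ± 0.207 FPKM with metformin (SD, n = 3 each). The cytosolic thiolase Acat2 had 36.4 ± 0.628 FPKM in the control group and 35.4 ± 0.582 FPKM with metformin (SD, n = 3 each), with an adjusted p = 0.648 from limma. Among the regulators of ketone body synthesis, Cpt1a and Sirt3 had means of 19.1 and 6.84 FPKM with overlapping groups. Ppara was listed at 0 in all libraries, and Ppargc1a and Fgf21 had means of 0.010 and 0.013 FPKM. The receptors Hcar1, Hcar2 and Ffar3, which sense lactate or ketone bodies outside the cell, had means of 0 to 0.027 FPKM.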

How the data were processed

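RNA-seq of 3 control and 3 metformin libraries was analysed as FPKM. The authors deposited FPKM, rounded to 2 decimals, for 55401 Ensembl genes with 1 column per library. The submitters' processing notes name HISAT2, DESeq2 and mm9 without roles or versions, while positions in the table are those of GRCm38; the counter and its strand setting are not given in the sources used here. The labels name a stranded library kit and the study's methods another kit. Counts were not used here, so no count test was made.

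Values were tested as log2(FPKM + 1) for the 10661 genes whose mean reached 1 FPKM. The test was limma 3.58.1 in R 4.3.3 (eBayes, variance trend on the mean), two-sided, Benjamini-Hochberg adjusted, threshold 0.05. Members not reaching that mean (Bdh2, Slc16a7) were described only. Depth was estimated from the FPKM step of 1 fragment on single-exon genes shorter than 400 bp in GENCODE M1, whose values lay within 0.1 of a whole multiple. Members, lists and tests were chosen with earlier results of these data known, and some genes of these pathways and of the SLC16 family are not reported here. The text names all 8 members, genes of the pathway and marker lists, genes overlapping a member, and the 3 genes closest to the member with the lowest unadjusted p. Single genes of the lists were picked out after their values were seen. Exact permutation tests were two-sided. Alternatives were another pseudocount, other filters, scalings and spreads, a replicate block, and each library left out in turn. The fit was tested on simulated data. Figures were drawn with matplotlib 3.10.9.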

Additional observations from a re-analysis of the deposited data

How the results depend on the processing

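Across 15 alternatives, 0 members and 0 genes of the pathway lists passed an adjusted p of 0.05 in limma, and the lowest adjusted p of any member under any alternative was adjusted p = 0.360. The number of all genes past the threshold was 3, became 7 when all genes above 0 in at least 1 library were tested, and was 3 to 4 in the fits that omit 1 library. For Acat1 the same fits gave log2 fold changes from -0.030 to 0.0023, positive only without metformin replicate 1. The other 5 tested members kept their direction under every alternative that could be run, and none of these differences passed the test. For Bdh1, Slc16a6 and Slc16a1 the size of the difference moved by over 1.5 times when single libraries were left out. The same fits gave 0.0085 (without metformin replicate 3) to 0.07 (without control replicate 2) for Bdh1, where 0.04 was found with all libraries, and 0.03 (without metformin replicate 2) to 0.10 (without metformin replicate 1) for Slc16a6, against 0.07. For Slc16a1 they gave -0.04 (without metformin replicate 2) to -0.02 (without metformin replicate 1), against -0.03. The ranges were -0.07 to -0.04 for Oxct1 and 0.04 to 0.07 for Slc16a3, within 1.5 times of the values with all libraries. For Bdh1 a filter of 10 FPKM left no value, and Bdh2 gave a value only without a filter and Slc16a7 under none. Oxct1, Slc16a1 and Slc16a3 remained without overlap between the groups under all scalings. Scaling moved the median of all genes by less than 0.01. Whether libraries with the same replicate number share a culture or batch is not given by their names. Correlations of their deviations were -0.03 to 0.05, against -0.05 to 0.03 for libraries with different numbers. With the replicate block, adjusted p = 0.537 to 0.832 was obtained for the members in limma, 0 passed, and 2 of all genes did. Depth limits the description of Bdh2 and Slc16a7.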

Other observations

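Ratios of members within a library do not depend on its scaling, and they were compared after the values had been seen. Of the 15 pairs of the 6 measured members, 6 had ratios that did not overlap between the groups, against 15.3% of all pairs of tested genes. Each of these pairs set Slc16a3 or Slc16a6 against Slc16a1, Oxct1 or Acat1, so the pairs share genes and are not independent. Some of them count again the separations of single genes described above, so no more is read from this count. The level of Slc16a3, which encodes the lactate exporter MCT4, relative to that of Slc16a1, which encodes MCT1, was 0.432, 0.443 and 0.447 in the control libraries and 0.468, 0.468 and 0.467 with metformin (p = 0.1 in a two-sided exact permutation test, which cannot go lower here). The level of Slc16a3 relative to that of Oxct1 was 0.744, 0.774 and 0.740 in the control libraries and 0.818, 0.824 and 0.813 with metformin, with the same p. As single genes, Slc16a3 was higher with metformin and Slc16a1 and Oxct1 were lower, each without overlap. Both ratios therefore had to separate and had to give this p, so they add no support to the single genes. Bdh1 was in none of the 6 pairs. Whether fragments shared with Csnk1d contribute to the Slc16a3 values was not tested.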
